A study of Homo sapiens with 6 samples.

Results

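The genes examined here lie among the HLA genes of the major histocompatibility complex (MHC) on the short arm of chromosome 6 but do not encode HLA molecules. The MHC is one of the most gene-dense stretches of the human genome. Its class I part holds the classical class I genes among many unrelated ones, its class III part holds no HLA gene at all, and its class II part holds the class II genes with the genes of peptide processing. The unrelated neighbours encode tubulin, chromatin proteins, RNA-processing factors, heat shock proteins, kinases and enzymes. Interferon gamma (IFNγ) raises class I and class II genes in most cell types, and tumour necrosis factor (TNF) acts largely through NF-kappaB. Many genes of this region other than HLA thus share a stretch of chromosome with cytokine targets, at varied distances, without sharing their function.

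Native poly(A) RNA of RCC4, an established human line of clear cell renal carcinoma, was read by direct RNA nanopore sequencing. The 3 untreated libraries are compared with 3 libraries from cells given IFNγ at 1000 U/mL together with TNF at 25 ng/mL for 24 h. Both groups are the same line, each biological replicate came from 3 flasks, and the labels name no vehicle, no genotype change and no further agent. The 2 cytokines were given only together, so their effects cannot be told apart, and 1 cell line was used.

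The members were chosen by position and level. They were selected on a gene start between 28.5 and 33.5 Mb of chromosome 6 (GRCh38) and a mean of at least 10 counts over the 6 libraries, with a list of names left out. The names left out were those of HLA, MIC, TAP, PSMB, TRIM, SLC, VARS, RPS and LINC genes, antisense and divergent transcripts, IER3 and the complement genes C2, C4A, C4B and CFB. This gave 65 members of the 61541 genes in the files. The window held 411 genes, of which 312 had a name that was not left out, and 247 of those were below the minimum, 193 of them with no read. The members just inside the minimum were CSNK2B (mean 10 counts), PBX2 (11.7) and UBD (13), and the genes just outside were LTB (6.83), HSPA1L (6.33) and GABBR1 (6.17). All 65 members passed the filter on low counts and were tested. UBD reached the minimum through the treated libraries alone, with means of 0 counts in untreated and 26 counts in treated libraries, so it had to differ, and CSNK2B had means of 9 and 11 counts.

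Library totals ran from 3626000 to 4406296 counts, and 60 of the 65 members are protein-coding in GENCODE 29. All 8 markers of renal carcinoma epithelium were detected, whereas 5 of 6 leukocyte markers and 3 of 3 endothelial markers were at 0 in every library. Of the 3 fibroblast markers, 2 were detected, with a summed level of 54.6 to 73.9 CPM (counts scaled to a common, normalised library size) in untreated and 27.3 to 48.9 CPM in treated libraries. The cytokine response genes IRF1, ICAM1 and CIITA each passed the threshold upward. Among the markers, VIM rose while PAX8, KRT19 and the fibroblast gene PDGFRB fell by the same test, and their part in the members' values was not tested.

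Most of the 65 members were not called. UBD, PPP1R18, GPSM3 and DDR1 rose with IFNγ and TNF and HSD17B8 fell. The call rule was an adjusted p under 0.05, over all genes tested, from edgeR's quasi-likelihood test. By this rule 5 of 65 members (7.69%) were called, where 8.14% of the 10067 genes tested were. Higher calls made up 4 of 65 members, against 562 of the 10067 genes tested (5.58%), and lower calls 1 of 65, against 257 (2.55%). Without UBD, which the minimum selected through its treated level, 3 of the other 64 members were called higher. The members' share is thus close to that of all genes.

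The genes left out by name give the contrast inside the same window. Of those with a mean of at least 10 counts, 23 in all, 14 were called higher and 0 lower (60.9%), with a median log2 fold change of 2.13. An unadjusted p under 0.05 in edgeR was found for 18 of the 23, for 10 of 65 members and for 1995 of the 10067 genes tested. HLA-DRA (0, 0 and 0 reads untreated, 69, 123 and 122 treated) and HLA-DRB1 (3, 1 and 3 against 148, 169 and 216) had to differ. Both reached the minimum through their treated reads. The names left out also include HLA genes, which IFNγ is known to raise, so the contrast was partly set by the list. The 65 members had a median of 0.06, against -0.03 over all genes tested, with 38 positive and 27 negative values. On the rest of chromosome 6, 418 genes were tested, and 7.89% were called. In bulk RNA, fewer cells expressing a gene and less RNA per cell cannot be told apart.

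**Figure D1:**
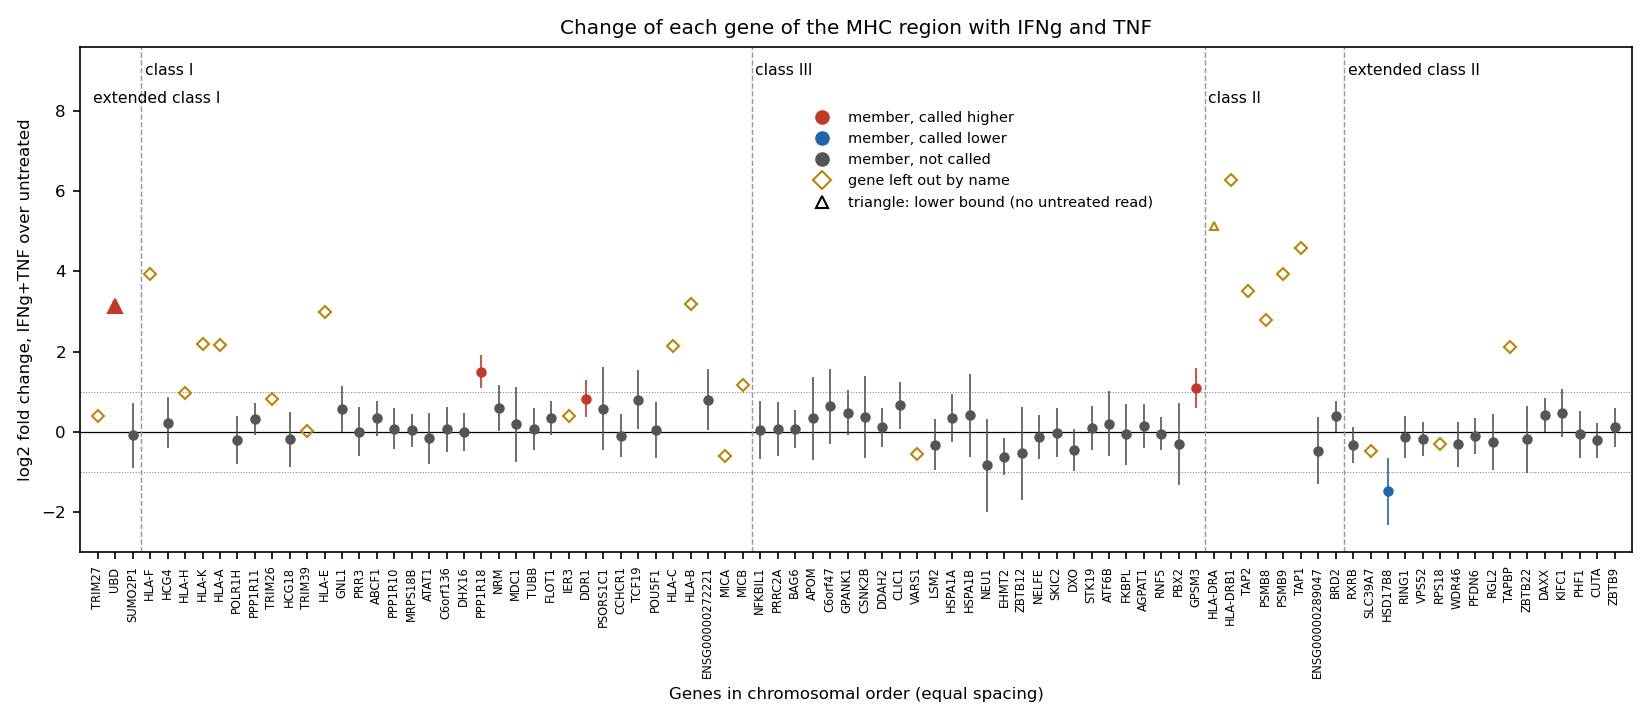
Log2 fold change of IFNγ+TNF over untreated cells (y axis) for the 65 members and the 23 genes left out by name, in chromosomal order at equal spacing (x axis). Circles are members with their 95% interval, diamonds are genes left out by name, triangles are genes with no untreated read drawn at their lower bound, and dotted lines mark a 2-fold change. The 4 members called higher and the 1 called lower stand among members near 0, while 14 of the left-out genes were called higher.

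UBD (ENSG00000213886) encodes FAT10, a ubiquitin-like protein that tags proteins for the proteasome and is known to be induced by IFNγ and TNF together. It lies on the minus strand of chromosome 6 at 29555515 to 29559732, before the class I genes. Reads are the counts of replicates 1, 2 and 3 in that order, here and for the genes that follow. UBD had 0, 0 and 0 reads untreated against 25, 27 and 26 treated. No untreated library held a read and all 3 treated libraries did, at nearly equal counts. The treated level was 6.88 ± 0.713 CPM (SD, n = 3), at least 8.80-fold higher than the level of 3 counts per untreated library. By edgeR's quasi-likelihood test the adjusted p was 0.00108. The minimum selected UBD through these treated reads alone, so this p gives no support for a difference. Exons of GABBR1 on the same strand cover 80.8% of the exonic bases of UBD and 77.2% of its last 500 bases. Reads that touch the exons of both genes are left uncounted by the counting program's defaults, and the part of this overlap in the level of UBD was not tested. GABBR1, a GABA B receptor subunit, had 3, 7 and 7 reads untreated against 3, 14 and 3 treated, and the groups overlapped. Exons of UBD cover 100% of the last 500 bases of GABBR1, so its counts carry the same limit.

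The 250 bases before the RefSeq start of UBD (GRCh38.p14, chr6:29559733-29559982, minus strand, written 5′ to 3′) are shown because UBD is the member that went from no read to a called level. The capitals mark, in order, a match to the core of the heat shock element (GAANNTTC) 120 bases before the start and a match to the NF-kappaB consensus 53 bases before it.
UBD: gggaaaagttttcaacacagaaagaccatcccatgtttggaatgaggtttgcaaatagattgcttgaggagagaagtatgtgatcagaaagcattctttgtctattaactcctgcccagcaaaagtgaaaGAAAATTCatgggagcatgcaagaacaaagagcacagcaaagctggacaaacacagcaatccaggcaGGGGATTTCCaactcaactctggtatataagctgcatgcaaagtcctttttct

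The window held no match to the gamma-activated site (TTCNNNGAA) or to the core of the interferon-stimulated response element (GAAA, any 2 bases, then GAAA), which says only that these letters are not in these bases. All 4 motifs were searched on both strands. Over the 35116 promoter windows of the RefSeq table, 9.96% held an NF-kappaB match, 5.78% a heat shock core, 6.57% a gamma-activated site and 3.02% an interferon core. Of the 65 members 58 had a promoter in that table, with 88 windows in all. Windows with a match numbered 9 for NF-kappaB, 6 for the heat shock core, 6 for the interferon core and 1 for the gamma-activated site.

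PPP1R18 (ENSG00000146112), or phostensin, encodes a subunit that directs protein phosphatase 1 to the actin cytoskeleton. It lies on the minus strand at 30676389 to 30687895, in the class I part. It had 326, 337 and 302 reads untreated against 855, 866 and 846 treated. Every treated library lay far above every untreated one, and the 3 libraries of each group lay close together. The mean was 80.0 ± 10.2 CPM in untreated cells (SD, n = 3) and 226.9 ± 28.2 CPM in treated cells (SD, n = 3). It rose by 1.50 on the log2 scale (SE 0.19), which is 2.83-fold higher, and edgeR's quasi-likelihood test put the adjusted p at 0.00116. PPP1R18 shares no exonic base with another gene on its strand. Its nearest tested neighbours lie 0.152 kb and 3.38 kb away. NRM, an inner nuclear membrane protein, had 221, 202 and 145 reads untreated against 308, 300 and 208 treated (log2 fold change 0.59, edgeR adjusted p 0.241). DHX16, an RNA helicase of the spliceosome, had a log2 fold change of -0.01. The difference between PPP1R18 and these neighbours was not itself tested.

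PPP1R18 and DDR1 were the other called members whose RefSeq windows held a match, and a stretch around 1 match of each motif is shown. DDR1 had 3 further NF-kappaB matches that are not shown, 152 and 101 bases before another of its starts and 80 bases before yet another. Capitals mark a gamma-activated site 164 bases before the second RefSeq start of PPP1R18 (chr6:30686791-30686819, minus strand), and, for 1 of the 8 RefSeq starts of DDR1, an interferon core 182 bases before it (chr6:30880778-30880807, plus strand) and an NF-kappaB match 129 bases before it (chr6:30880831-30880860, plus strand), all in GRCh38.p14.
PPP1R18: gacgccagggTTCTGGGAAcgcgctggca
DDR1 interferon core: ccaatgccgcTTTCTGTTTCctctgcctcc
DDR1 NF-kappaB: ttctttgtctGGGGTCTCCCtttggttctg

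The windows of GPSM3 and HSD17B8 held no match to the 4 motifs.

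GPSM3 (ENSG00000213654) encodes a regulator of G protein signalling best known from leukocytes. It lies at 32190766 to 32195523, at the end of the class III part. It had 78, 75 and 64 reads untreated against 141, 148 and 146 treated. The groups did not overlap. The mean was 18.0 ± 3.13 CPM in untreated cells (SD, n = 3) and 38.4 ± 4.51 CPM in treated cells (SD, n = 3). It rose by 1.09 on the log2 scale (SE 0.22), which is 2.13-fold higher, and edgeR's quasi-likelihood test put the adjusted p at 0.017. The neighbour PBX2, a homeobox factor that starts 0.564 kb away on the same strand, had 11, 11 and 18 reads untreated against 6, 9 and 15 treated, and its groups overlapped. Exons of NOTCH4 cover 5.35% of the exonic bases of GPSM3. Of the 6 leukocyte markers, 5 were at 0 in every library, and CD14 had 0.288 and 0.284 CPM in treated replicates 1 and 3. The source of the GPSM3 reads was not tested.

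DDR1 (ENSG00000204580) encodes a receptor tyrosine kinase that binds collagen. It lies on the plus strand at 30876421 to 30900156, in the class I part. It had 120, 121 and 168 reads untreated against 202, 222 and 248 treated, so replicate 3 was highest in both groups and the groups did not overlap. The mean was 33.5 ± 3.91 CPM in untreated cells (SD, n = 3) and 59.5 ± 10.3 CPM in treated cells (SD, n = 3). It rose by 0.82 on the log2 scale (SE 0.21), which is 1.77-fold higher, and edgeR's quasi-likelihood test put the adjusted p at 0.042.

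HSD17B8 (ENSG00000204228) encodes a 17-beta-hydroxysteroid dehydrogenase that also serves mitochondrial fatty acid synthesis. It lies on the plus strand at 33204655 to 33206831, in the extended class II part. It had 49, 64 and 82 reads untreated against 31, 20 and 13 treated, and the groups did not overlap. The mean was 15.9 ± 2.92 CPM in untreated cells (SD, n = 3) and 5.70 ± 2.82 CPM in treated cells (SD, n = 3). It fell by 1.49 on the log2 scale (SE 0.37), which is 2.81-fold lower, and edgeR's quasi-likelihood test put the adjusted p at 0.0393. SLC39A7, a zinc transporter whose gene ends 0.216 kb before it on the same strand, had a log2 fold change of -0.49 (edgeR adjusted p 0.129). RING1, a Polycomb ubiquitin ligase that starts 1.67 kb after it, had one of -0.14.

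**Figure D2:**
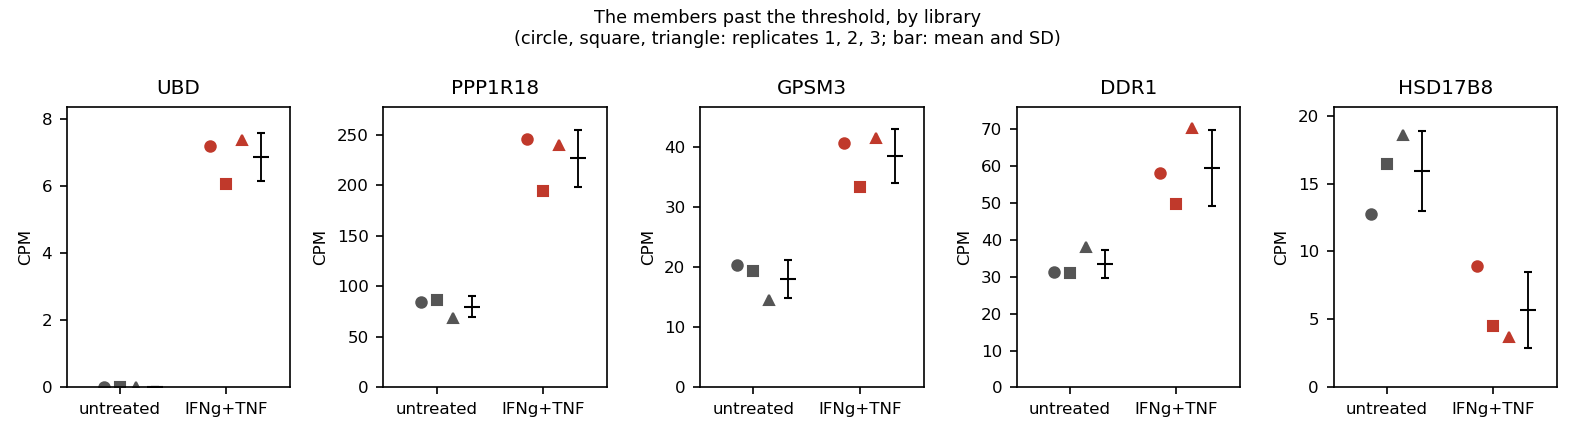
CPM of the 5 called members (y axis, from 0) in each of the 3 untreated and 3 IFNγ+TNF libraries (x axis). Circles, squares and triangles are replicates 1, 2 and 3, and the bar beside them is the mean with its SD. UBD stands at 0 in every untreated library, PPP1R18 more than doubles, and HSD17B8 is lower in every treated library.

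PPP1R18 was called in every alternative that tested it. The call of UBD carries no such weight, since its choice rests on its treated reads alone. The edgeR adjusted p of DDR1 rose to between 0.101 and 0.182 without untreated replicate 1 or 2 or treated replicate 1 or 3. That of GPSM3 rose to between 0.0609 and 0.0809 without untreated replicate 2 or treated replicate 1 or 3. That of HSD17B8 rose to between 0.131 and 0.158 without untreated replicate 2 or treated replicate 2 or 3. Without untreated replicate 2, treated replicate 1 or treated replicate 3, 2 members in place of 4 were called higher, UBD and PPP1R18 each time. Apart from UBD, only PPP1R18 was then left. Without untreated replicate 2, treated replicate 2 or treated replicate 3, 0 in place of 1 were called lower.

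The remaining members are described by role, in lists chosen with earlier results of these data known, so the calls per list are a description only. The 8 members of the ubiquitin-like and protein quality list had 1 higher and 0 lower call and a median log2 fold change of 0.01. The higher call was UBD, which the minimum selected through its treated reads. The most abundant was CUTA, whose place in this list was a choice and was not tested. CUTA had 3402, 3527 and 2712 reads untreated against 2657, 2777 and 2440 treated. Its level was 803 ± 164 CPM in untreated and 694 ± 70.4 CPM in treated libraries (log2 fold change -0.21, edgeR adjusted p 0.656), and the groups overlapped. BAG6, a chaperone that guides tail-anchored and misfolded proteins, had 706, 677 and 559 reads untreated against 701, 710 and 511 treated (log2 fold change 0.06, with a sign that changed in 3 alternatives).

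HSPA1A and HSPA1B encode the stress-inducible HSP70 chaperones. HSPA1A had 463, 534 and 319 reads untreated against 420, 551 and 620 treated, and HSPA1B had 29, 28 and 12 untreated against 16, 37 and 36 treated. The groups overlapped in both genes, with log2 fold changes of 0.35 and 0.41 (edgeR adjusted p 0.570 and 0.734). Their coding sequences agree in 1919 of 1923 bases (99.8%), so reads could be split between them and their separate values are uncertain. Their upstream stretches are shown for the same reason, with the heat shock core in capitals, 106 bases before the start in HSPA1A (GRCh38.p14, plus strand, chr6:31815427-31815454 and chr6:31827623-31827650).
HSPA1A: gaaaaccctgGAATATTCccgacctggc
HSPA1B: gaaacccctgGAATATTCccgacctggc

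The core reads the same in both stretches.

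The TNF cluster had a single member, NFKBIL1, with 44, 39 and 43 reads untreated against 53, 34 and 33 treated (log2 fold change 0.04, edgeR adjusted p 0.973, sign changed in 5 alternatives). It encodes an inhibitor-like relative of the NF-kappaB regulators. TNF itself had 0, 2 and 0 reads untreated against 4, 0 and 4 treated, below the minimum.

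Of 16 chromatin and transcription members, 0 were called by edgeR and 2 had an unadjusted p under 0.05, with a median log2 fold change of -0.10. Over all genes tested, 1995 of 10067 had such a p, which is the share to set beside this list and those that follow. The most abundant were NELFE, a subunit of the complex that pauses RNA polymerase, and DAXX, a histone chaperone. NELFE had 613, 595 and 442 reads untreated against 554, 490 and 378 treated (log2 fold change -0.13). DAXX had 375, 391 and 324 reads untreated against 448, 528 and 406 treated (log2 fold change 0.42, edgeR adjusted p 0.253). The DAXX groups did not overlap, higher in treated cells. TCF19, a cell cycle linked factor, had 268, 280 and 126 reads untreated against 398, 411 and 317 treated (log2 fold change 0.80, edgeR adjusted p 0.207), with untreated replicate 3 far below the others. Without that library the log2 fold change was 0.47. EHMT2, a histone methyltransferase, had 269, 266 and 281 reads untreated against 190, 179 and 130 treated (log2 fold change -0.62, edgeR adjusted p 0.116), with groups that did not overlap. It was called lower with library totals alone (edgeR adjusted p 0.0416). EHMT2 and the next genes were named after their values were seen.

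BRD2, a bromodomain protein that reads acetylated histones, lies among the class II genes. It had 178, 196 and 237 reads untreated against 227, 294 and 228 treated, or 50.1 ± 3.60 CPM (SD, n = 3) and 65.4 ± 0.643 CPM (SD, n = 3), and the CPM of the groups did not overlap (log2 fold change 0.38, edgeR adjusted p 0.257). RXRB, a retinoid X receptor, had 271, 219 and 228 reads untreated against 185, 208 and 147 treated (log2 fold change -0.33, edgeR adjusted p 0.432). RING1 had 163, 181 and 147 reads untreated against 151, 175 and 99 treated, and its groups overlapped. POU5F1, which encodes OCT4, had 77, 76 and 49 reads untreated against 78, 68 and 51 treated (log2 fold change 0.04), with replicate 3 lowest in both groups. ZBTB9, ZBTB12 and ZBTB22, zinc finger genes of the BTB type, had log2 fold changes of 0.11, -0.54 and -0.19.

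Of 11 RNA processing and translation members, 0 were called by edgeR and 0 had an unadjusted p under 0.05, with a median of 0.01. LSM2, a core protein of the complexes that handle U6 RNA and mRNA decay, had 1489, 1496 and 856 reads untreated against 1104, 1026 and 793 treated (log2 fold change -0.32, edgeR adjusted p 0.631). MRPS18B, a mitochondrial ribosomal protein, had 680, 672 and 570 reads untreated against 615, 738 and 519 treated (log2 fold change 0.03). The groups overlapped in both genes. GNL1, a GTP-binding protein, had 69, 74 and 56 reads untreated against 101, 88 and 89 treated (log2 fold change 0.57, edgeR adjusted p 0.257), and its groups did not overlap. ABCF1, a translation factor of the ABC family, had 351, 259 and 287 reads untreated against 305, 424 and 350 treated (log2 fold change 0.34). DXO, an enzyme that removes faulty RNA caps, had 106, 111 and 88 reads untreated against 68, 84 and 60 treated (log2 fold change -0.45, edgeR adjusted p 0.326). GNL1 and DXO thus stood at opposite ends of this list.

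The 7 signalling members included the 3 called genes PPP1R18, GPSM3 and DDR1. Among the other 4, PPP1R11, an inhibitor of protein phosphatase 1, had 318, 323 and 310 reads untreated against 362, 384 and 364 treated (log2 fold change 0.31, edgeR adjusted p 0.391). CSNK2B, the regulatory subunit of casein kinase 2, had 8, 11 and 8 reads untreated against 14, 13 and 6 treated, and its groups overlapped.

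Of 8 cytoskeleton, membrane and trafficking members, 0 were called by edgeR and 2 had an unadjusted p under 0.05, with a median of 0.21. TUBB, the main beta tubulin, had 17750, 17626 and 11530 reads untreated against 16787, 17425 and 12640 treated. It took 0.291% to 0.459% of all counts of a library (log2 fold change 0.07, sign changed in 3 alternatives), and replicate 3 was lowest in both groups. CLIC1, an intracellular chloride channel protein, had 1060, 1082 and 620 reads untreated against 1166, 1625 and 1403 treated (log2 fold change 0.66, edgeR adjusted p 0.194). Untreated replicate 3 was the lowest of the 6 and the groups did not overlap. Without that library the log2 fold change was 0.39. KIFC1, a mitotic kinesin, had 572, 475 and 314 reads untreated against 619, 679 and 505 treated (log2 fold change 0.47, edgeR adjusted p 0.392), with replicate 3 lowest in both groups. FLOT1, a scaffold of membrane rafts, had 567, 600 and 497 reads untreated against 678, 678 and 633 treated (log2 fold change 0.34, edgeR adjusted p 0.383).

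Of 5 metabolism and lysosome members, HSD17B8 was called lower. NEU1, the lysosomal sialidase, had 453, 523 and 1479 reads untreated against 258, 267 and 691 treated (log2 fold change -0.83, edgeR adjusted p 0.445). The value was -0.20 without untreated replicate 3, -0.47 without treated replicate 2 and -1.54 without treated replicate 3, and none of these passed the threshold. Replicate 3 held 2.65 times the mean of replicates 1 and 2 in untreated and 2.92 times in treated libraries, so the spread within the untreated group exceeded the difference. DDAH2, a relative of the enzyme that degrades methylated arginine, had 123, 148 and 146 reads untreated against 159, 140 and 122 treated (log2 fold change 0.11, sign changed in 2 alternatives). The 5 members of the other list and the 4 non-coding members had 0 calls by edgeR, with 0 and 1 of them at an unadjusted p under 0.05. GPANK1 had 158, 154 and 104 reads untreated against 192, 203 and 156 treated (log2 fold change 0.48, edgeR adjusted p 0.345). C6orf136 had 60, 67 and 52 reads untreated against 58, 62 and 56 treated. Of the non-coding genes, HCG4 had 41, 32 and 40 reads untreated against 46, 48 and 31 treated, and HCG18 had 49, 40 and 36 against 40, 34 and 29. The groups of these 3 genes overlapped.

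**Figure D3:**
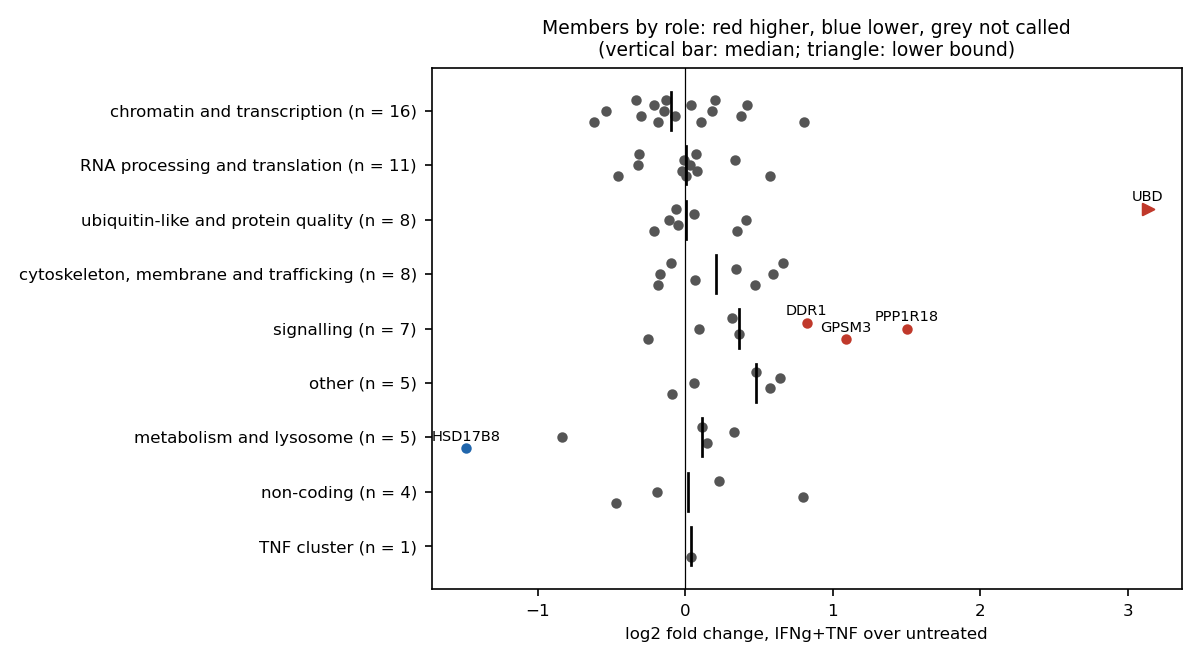
Log2 fold change of IFNγ+TNF over untreated cells (x axis) for the 65 members grouped by role (y axis). Points are genes, vertical bars are medians, and red, blue and grey mark members called higher, lower and not called. The triangle for UBD is a lower bound.

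By part of the region, 23 members lay in class I (2 called higher, median 0.18, 18 positive) and 25 in class III (1 higher, median 0.07). The 13 in the extended class II part had 1 lower call, a median of -0.19 and 10 negative values. Only 2 members lay in the class II part and 2 in the extended class I part. The summed levels of the parts, tested beside the sum of all members, gave exact permutation p from 0.1 to 0.8 (adjusted p 0.35 to 0.8), where 0.1 is the smallest that 3 against 3 libraries allow. The exact permutation p of 0.1 came from the class II and the extended class I parts. The extended class I sum holds UBD, which the minimum selected through its treated reads, so its p gives no support for a difference. Its other member, SUMO2P1, had 4.04 CPM untreated and 3.76 CPM treated.

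Groups did not overlap in CPM, higher in treated cells, for 13 of 65 members, where 1402 of the 10067 genes tested (13.9%) did so. They were the 4 called ones with PPP1R11, GNL1, NRM, TCF19, ENSG00000272221, GPANK1, CLIC1, BRD2 and DAXX. Of these, UBD had to be apart, since the minimum selected it through its treated reads. The groups did not overlap, lower in treated cells, for 3 of 65 members, HSD17B8, EHMT2 and DXO, where 1202 of the 10067 genes tested (11.9%) did so. The 60 members not called had log2 fold changes from -0.83 to 0.80. A 95% interval within 2-fold in either direction was found for 40 of 65 members (61.5%), against 48.7% of all genes tested.

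Levels per kilobase of exon are given as a description, since the minimum selected on level. Direct RNA reads need not grow in number with exon length, so the division can change the order. Undivided, the untreated means of NEU1 (195.7 CPM) and BAG6 (161.6 CPM) lay above that of MRPS18B (159.7 CPM). The undivided untreated medians were 30.9 CPM for the members and 18.9 CPM for all genes tested. The members' median untreated level was 9.45 CPM per kb, against 3.71 CPM per kb over all genes tested. TUBB led with 964 CPM per kb, followed by CUTA at 428, LSM2 at 304, CLIC1 at 119 and MRPS18B at 90.9. The libraries of TUBB (640 to 1137 CPM per kb) and CUTA (327 to 484) did not overlap, those of CUTA and LSM2 (183 to 367) did, and those of CLIC1 (72.2 to 143) and MRPS18B (73.4 to 101) did.

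The members' summed level was 9115, 8965 and 5887 CPM in untreated and 9603, 7892 and 7854 CPM in treated libraries. The treated mean was 460.9 CPM higher, smaller than the SD of 1822 CPM in untreated and 999 CPM in treated libraries, and the 2-sided exact permutation test gave p = 0.8 (adjusted p 0.8 over 7 sums, smallest possible p 0.1). The difference was -590.1 CPM without untreated replicate 3 and -116 CPM without treated replicate 1, so its sign rests on those libraries.

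Replicate 3 stood apart in many members. It was the lowest of the untreated libraries in 49 of 65 members (75.4%, against 41.3% of all genes tested) and the lowest of the treated ones in 35 (53.8%, against 33.6%). In 29 members (44.6%, against 20.6%) it was lowest in both groups. The part of this in the members' values was not tested.

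**Figure D4:**
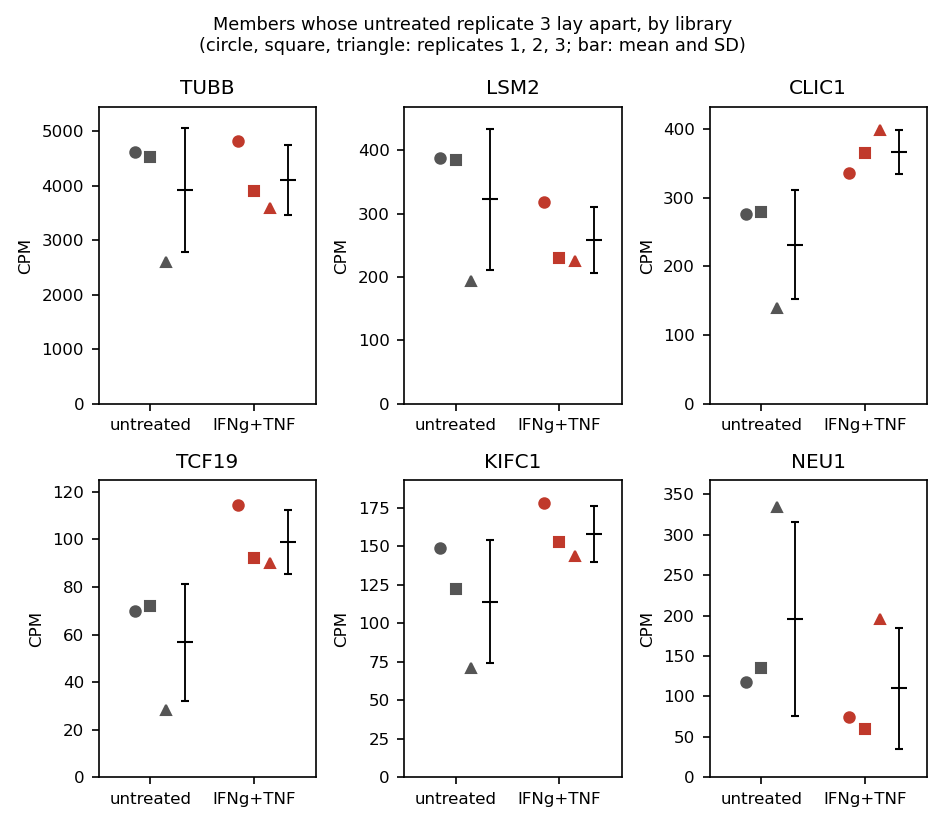
CPM (y axis, from 0) of 6 members in each library (x axis), chosen after their values were seen. Circles, squares and triangles are replicates 1, 2 and 3, and bars give the mean and SD. Untreated replicate 3 was lowest in TUBB, LSM2, CLIC1, TCF19 and KIFC1 and highest in NEU1.

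Of the genes on the role lists, 28 were below the minimum, 10 of them with no read. Same-strand exons of other genes cover bases of 14 of the 28, and of 6 of the 10. DDX39B, an RNA helicase of mRNA export, had 0, 1 and 3 counts in untreated and 0 in each treated library, with 46.4% of its last 500 bases shared with a read-through gene. GTF2H4, a subunit of the repair and transcription factor TFIIH, and HCP5, a non-coding RNA, had no read, and 75% of the last 500 bases of GTF2H4 were shared. MSH5, a meiotic DNA repair gene with no read, shared 68.8%. The part of overlap in these counts was not tested, and a count of 0 does not show that such a gene was silent.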

How the data were processed

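The members, role lists and motifs were chosen with earlier results of these data known. Read counts per gene were deposited by the authors, made with featureCounts 2.0.1 in long-read, strand-specific mode on Ensembl 105 exons of GRCh38, per the file headers. No option to count multi-mapping reads or reads over several genes appears there. The submitters' processing notes name minimap2 2.24, SAMtools 1.16 and featureCounts 2.0.0. Header alignment names carry the word dmso, whereas the labels name no vehicle. Counts were tested with edgeR 4.0.16 (R 4.3.3), TMM, filterByExpr and Benjamini-Hochberg adjustment at 0.05. CPM used TMM-scaled library sizes. SE was the absolute log2 fold change over the root of F. A limit for a 0 count was 3 counts, covering counting error only. On simulated counts for 9811 genes with 200 changed, edgeR recovered 24 of 100 genes changed 2-fold and 82 of 100 changed 4-fold, with 6 false calls. Symbols matched 61369 of 61541 identifiers. Named genes were called members, the 2 most abundant of each role, the 3 largest changes not called, the 5 highest per kilobase and those nearest the minimum. Upstream sequences are RefSeq's (GRCh38.p14). Replicate pairs gave chi-square values of 3.75 to 28.1 per degree of freedom, above sampling noise, so none was merged. DESeq2 1.42.0 and limma 3.58.1 voom were alternatives. A further gene of the cytokine response check is not reported here.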

Additional observations from a re-analysis of the deposited data

How the results depend on the processing

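Counts of members called higher and lower were 4 and 1, with 819 genes called in all. The replicate block gave 7 higher, 3 lower and 1513 in all. The labels do not say whether same-numbered samples were paired. Deviations of same-numbered samples from their group means correlated at 0.65, -0.0037 and 0.37, and those of untreated replicate 3 and treated replicate 2 at 0.41. Deviations within a group of 3 are tied to each other, so these values cannot settle the pairing. The block is therefore given as an alternative only. Testing every gene with at least 1 count gave 6 higher, 2 lower and 1328 in all. Library totals alone gave 3 higher, 2 lower and a median log2 fold change of -0.039, and moved the median of all genes to -0.13. Genes sharing no same-strand exon base gave 1 higher, since UBD, GPSM3 and DDR1 share bases and are left out there. A minimum mean of 50 counts gave 0 lower. Leaving out 1 library gave 2 to 4 higher, UBD among them each time, 0 to 1 lower and 455 to 1178 in all. The median was then -0.094 to 0.16 and the difference in summed CPM -590.1 to 1024. The summed difference was -90.3 CPM with library totals alone and 273.6 CPM without TUBB, an alternative chosen after seeing the data. CLIC1, TCF19 and NEU1 passed the threshold under the replicate block (edgeR adjusted p 0.0149, 0.00487 and 0.00117) and without the filter (0.0436, 0.0143 and 0.0147), and DDR1 did not with library totals alone (0.0831). NRM was called higher under the replicate block (edgeR adjusted p 0.0387), and EHMT2 was called lower under it (0.0316) and with library totals alone (0.0416). Signs turned among members near 0. With library totals alone BAG6 was at -0.039, C6orf136 at -0.0417, MRPS18B at -0.0659, TUBB at -0.0274, NFKBIL1 at -0.0772 and DDAH2 at -0.0001. NFKBIL1 was at -0.0339 in limma voom and -0.001 under the replicate block. Leaving out 1 library gave ranges of -0.0948 to 0.19 for BAG6, -0.094 to 0.18 for C6orf136, -0.38 to 0.0058 for HCG18, -0.34 to 0.0103 for NELFE, -0.11 to 0.13 for MRPS18B, -0.16 to 0.22 for TUBB, -0.29 to 0.29 for NFKBIL1 and -0.0534 to 0.27 for DDAH2. The cause of these changes was not tested. PPP1R18 kept its direction and call in the 14 alternatives that tested it. Leaving out 1 library gave -1.54 to -0.20 for NEU1, 0.47 to 1.01 for TCF19 and 0.39 to 0.83 for CLIC1. Groups of 3 libraries recovered few 2-fold changes in simulation, so members not called may still differ.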

Other observations

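Some genes of the window with names that the rule allows fell below its minimum. Those with a mean of at least 1 count were looked at, and 3 passed the threshold when edgeR was run on all genes with any count. That run gave PPP1R18 an edgeR adjusted p of 1.03e-08, against 0.00116 in the main test, so its p are not on the scale of the main test. The 3 were named after their values were seen, and 1328 of the 19158 genes in that run were called. LST1, a leukocyte-specific transcript of the TNF cluster, had 0, 0 and 0 reads untreated against 1, 2 and 7 treated (edgeR adjusted p 0.0326), most of them in treated replicate 3. The non-coding gene ENSG00000285761 had 0, 0 and 0 reads untreated against 6, 6 and 2 treated (edgeR adjusted p 0.00545). The pseudogene IFITM4P had 2, 2 and 2 reads untreated against 10, 13 and 5 treated (edgeR adjusted p 0.0333). As a copy of the IFITM family its value is uncertain. LTB, which encodes lymphotoxin beta, did not pass it and had 1, 3 and 5 reads untreated against 9, 11 and 12 treated (edgeR adjusted p 0.0527). In all 4 genes every treated count lay above every untreated count. The 4 were picked by their values, and the share of such genes among all genes with so few reads was not taken. LST1 and ENSG00000285761 entered that run through treated reads alone, so their p give no support for a difference.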
